A study of Rattus norvegicus with 6 samples.

Results

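The genes described here are those that copy DNA and those that carry a cell through mitosis, chosen as 41 gene symbols. Of these, 40 matched a gene model in a table of 33350, each with 1 row, and Ccnb2 was not analysed here. The 40 were read as 19 replication genes, which include the cyclins and E2F factors that act on entry into S phase, and 21 mitosis genes. RNA-seq gave 6 libraries of PC12, a rat line from an adrenal pheochromocytoma (a tumour of chromaffin cells) that is much used to study neuronal differentiation. All 6 samples were treated with endothelial exosomes, the small vesicles by which cells pass on protein and RNA. In the 3 libraries called EC the exosomes came from control endothelial cells, and in the 3 called EN from endothelial cells with high netrin-1, a secreted guidance protein that the title links to peripheral nerve repair. No time or dose is given in the sources used here, and no library of cells without exosomes was compared.

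A dividing cell first loads the MCM helicase, a ring of 6 proteins named Mcm2 to Mcm7, onto origins with the help of Cdc6 and Cdt1, and then fires those origins in S phase, when E2F factors have switched on the genes for copying DNA. Later, FoxM1 and the DREAM and B-Myb complexes control a second set of genes that peaks in G2 and mitosis, among them the cyclin B and Cdk1 kinase, the Aurora and Polo kinases, spindle motors and the checkpoint that holds chromosome separation until every kinetochore is attached. Because these transcripts rise and fall with the cycle, their level in a bulk sample depends both on how many cells are cycling and on the RNA each holds. Fewer cells of a phase and less RNA per cell cannot be told apart in bulk libraries. PC12 cells divide in serum and leave the cycle when nerve growth factor makes them differentiate.

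The reads worked back from the deposited values came to 15296193 to 16165804 per EC library and 16654025 to 19626012 per EN library, so each EN library was deeper. The mitochondrial share of reads was 5.43% to 6.09% in EC and 4.40% to 5.50% in EN. Of 13 chromaffin markers, 11 averaged under 1 FPKM (reads scaled by gene length and library size), and Pnmt, the enzyme that makes adrenaline, had no read in any library, so the cells are called here only by their label. Of 11 Schwann and glial markers in the table, 10 averaged at least 1 FPKM, and their summed level was 474 to 484 FPKM in EC and 419 to 452 in EN, with 1 of 10 tested markers higher and 5 lower (limma, as described later). The summed level of 11 endothelial markers was 10.02 to 12.1 FPKM in EC and 13.3 to 14.1 in EN, with no read for Cldn5. Of 4 tested endothelial markers 1 was higher, Egfl7 (log2 change 0.47, limma adjusted p = 0.0411), and Flt1 had every EN library above every EC library (0.29, adjusted p = 0.0522). The groups of the other tested markers, Tie1 and Tek, overlapped (log2 changes -0.028 and 0.018, limma adjusted p of 0.897 and 0.941). The remaining 7 of the 11 averaged under 1 FPKM. Fibroblast markers, 10 in all, summed to 114 to 118 FPKM in EC and 120.1 to 122.5 in EN. Only 4 of the 10 averaged at least 1 FPKM, among them Pdgfra at 64.8 and Twist1 at 43.4, and none of these 4 passed (limma). The part of these differences in the results below was not tested. Compared by their reads, libraries of the same group gave a chi-square per degree of freedom of 3.80 to 9.03, and libraries of different groups 10.6 to 23.5, so none was a copy of another. The labels do not say that the replicates were separate cultures, so p-values measure only how these samples spread, and that spread could be technical.

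Transcripts of both sets were abundant in every library. The mean over 6 libraries ran from 6.78 FPKM for Gins2, a subunit of the replicative helicase, to 559 FPKM for Ccnd1, which encodes cyclin D1 and lay above 99.2% of the 12198 genes tested. The median member stood at 56.2 FPKM, against 13.8 FPKM for all genes tested. Each member had between 413 and 42848 reads per library, and all 40 passed the minimum mean of 1 FPKM used to choose genes for testing. The proliferation antigen gene Mki67 averaged 84.9 FPKM in EC, Pcna, the sliding clamp of DNA polymerase, 315 FPKM, and Top2a, the topoisomerase that untangles sister chromosomes, 112.7 FPKM.

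The promoters hold a feature that the choice of genes did not use. Promoter sequence was found by symbol for 27 members (11 replication and 16 mitosis) in a RefSeq table of the GRCr8 build, and the 250 bases before the annotated start were searched on both strands. The motifs were an E2F site (TTTGGCG or TTTCGCG), the cell cycle homology region or CHR (TTTGAA or TTCGAA), which DREAM and B-Myb complexes bind, and the CCAAT box (CCAAT), the site of NF-Y. An E2F match stood in 4 of 11 replication promoters and 1 of 16 mitosis promoters, against 1.80% of 33469 promoters of the same length. A CHR match stood in 8 of 16 mitosis and 3 of 11 replication promoters, against 17.4% of all promoters, and a CCAAT match in 13 of 16 and 8 of 11, against 34.0%. Both CHR and CCAAT were found in 7 of 16 mitosis promoters (43.8%), against 6.31% of all. A match is a description of the letters and no evidence of binding. Printed here are the promoters of Mcm7, for the replication set, Cdk1, for a mitosis gene with all 3 motifs, and Bub1, the only member past the test between EN and EC, each 5′ to 3′ on the gene's strand with the matches in capitals.
Mcm7: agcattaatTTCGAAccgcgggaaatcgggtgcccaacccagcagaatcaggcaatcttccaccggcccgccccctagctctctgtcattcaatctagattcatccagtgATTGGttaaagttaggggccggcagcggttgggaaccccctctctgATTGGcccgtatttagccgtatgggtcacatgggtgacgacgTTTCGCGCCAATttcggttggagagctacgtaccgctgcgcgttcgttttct
Cdk1: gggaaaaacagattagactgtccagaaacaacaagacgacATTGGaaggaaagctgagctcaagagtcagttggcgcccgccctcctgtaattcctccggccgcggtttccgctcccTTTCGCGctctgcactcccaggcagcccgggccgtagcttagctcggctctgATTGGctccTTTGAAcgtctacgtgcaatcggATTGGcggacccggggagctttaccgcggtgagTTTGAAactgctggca
Bub1: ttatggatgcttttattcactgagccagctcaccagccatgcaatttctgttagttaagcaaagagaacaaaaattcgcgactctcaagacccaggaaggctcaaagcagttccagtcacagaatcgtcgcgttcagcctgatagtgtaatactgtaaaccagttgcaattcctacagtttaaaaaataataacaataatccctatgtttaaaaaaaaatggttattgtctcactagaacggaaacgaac
The Mcm7 window (chr12:22163179-22163428, minus strand) held 1 E2F, 1 CHR and 3 CCAAT matches, and its E2F match abuts a CCAAT match. The Cdk1 window (chr20:19265043-19265292, plus strand) held 1 E2F, 2 CHR and 3 CCAAT matches. The Bub1 window (chr3:135504922-135505171, minus strand) held none of these letters.

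The comparison of EN with EC asked whether recipient cells differed in these transcripts when the exosomes came from cells with high netrin-1. Of the 40 members, 1 passed the test as lower, none as higher and 39 did not pass (limma on log2(FPKM + 1), Benjamini-Hochberg adjusted p under 0.05 over all genes tested). This is 2.5% of the members, where 14.4% of all genes tested passed, 7.14% as lower and 7.24% as higher. At an unadjusted p under 0.05 there were 13 members, 10 higher and 3 lower, which is 32.5% against 32.3% of all genes tested. The changes were small: the median absolute log2 change was 0.067, against 0.13 over all genes tested. The 95% intervals (each for 1 gene) of 39 of 40 members lay inside a 1.25-fold change in either direction, as did those of 50.3% of all genes tested. The exception was Birc5, and all 40 intervals lay inside a 1.5-fold change (85.5% of all genes tested). The members were also more abundant, with a median of 56.2 FPKM against 13.8 FPKM for all genes tested. Their intervals were narrower: the median log2 distance from the change to either limit was 0.11, against 0.17 for all genes tested. Genes matched for abundance were not compared, so the part of abundance in these differences was not tested. The count depended on the fit and on single libraries. It was 0 to 2 with 1 library left out, 7 with limma voom on whole reads (6 higher and 1 lower) and 12 with array weights (9 higher and 3 lower). The count over all genes tested moved as well. It was 1754 in the main fit and, in the same order, 345 to 2067, 2343 and 3849 in these alternatives.

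**Figure D1:**
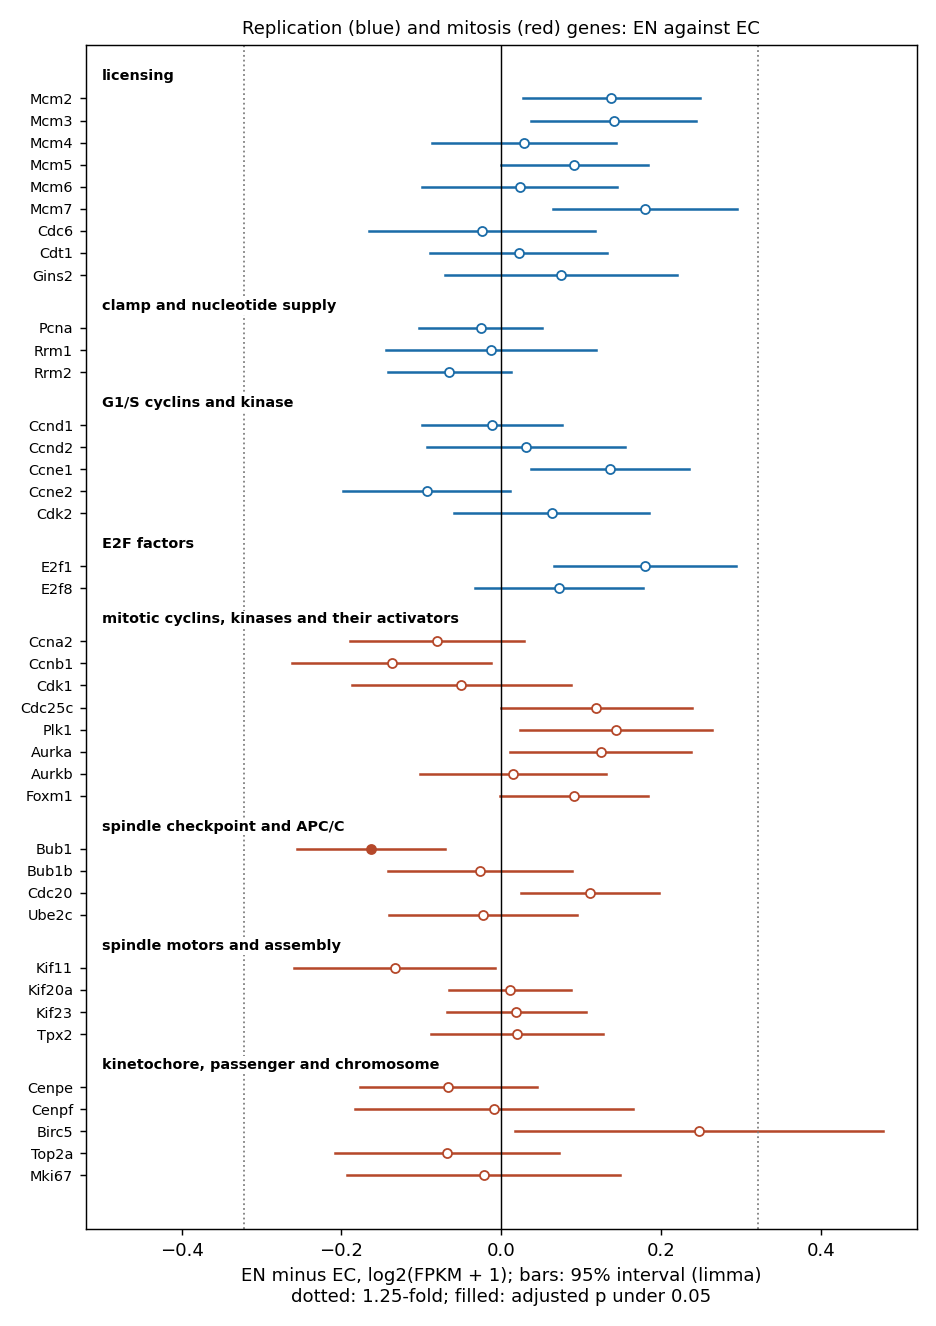
Difference between EN and EC on the log2(FPKM + 1) scale for each of 40 genes, with the 95% interval from limma, grouped by role, replication in blue and mitosis in red. Bub1 is the filled point, and the Birc5 interval alone crosses the dotted line of a 1.25-fold change.

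Among replication genes, none of 19 passed in limma, 6 had an unadjusted p under 0.05 (all higher) and 4 passed with voom. The unadjusted share was 31.6%, against 32.3% of all genes tested, and with voom 2343 of 12198 genes passed in all. The median log2 change of the 19 was 0.032, against -0.0028 over all genes tested. It was positive in all 18 alternatives to this fit (other scales, filters, models and each library left out). Some of these could not alter it: no filter, a minimum of 5 FPKM, the replicate block and no variance trend keep each gene's change. The TPM scale and voom moved the median over all genes too, to 0.012 and 0.020. The SD of the replication median among replicates was 0.018. Of the 19 changes, 13 were positive and 6 negative. The 9 licensing and helicase genes had changes from -0.024 (Cdc6) to 0.18 (Mcm7). Mcm4, the most abundant of them (chromosome 11, 89511191 to 89524892, Rnor_6.0), was at 90.2, 93.6 and 88.1 FPKM in EC replicates 1 to 3 and at 87.4, 93.0 and 97.3 in EN replicates 1 to 3. The lowest and the highest of these were both EN libraries, and the groups overlapped (log2 change 0.029, SE 0.049, limma adjusted p = 0.721).

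None of the 6 subunits of the MCM ring passed in limma, and the groups overlapped in some and not in others (single genes here were chosen after their values were seen). Over all genes tested, groups did not overlap in 37.9%, with EN above in 18.6%. Of the 9 licensing and helicase genes, 4 (44.4%) had EN above, all of them in the ring. Whether the subunits differ from each other was not tested. Mcm7 (chromosome 12, 19306607 to 19314016) was at 64.3, 59.2 and 57.1 FPKM in EC and at 68.7, 67.9 and 68.2 in EN. All EN libraries were above all EC libraries, and the EN libraries were closer to each other than the EC libraries (log2 change 0.18, SE 0.049, 95% interval 0.065 to 0.29, limma adjusted p = 0.0516). The Mcm7 model contains 3 microRNA genes on its strand. The adjusted p of Mcm7 fell under the threshold in 8 of 18 alternatives, with a lowest value of 0.013. These were voom, array weights, 4 changes of scale (TPM, median centring, quantile, length trend removed), a minimum of 5 FPKM and the fit without EC replicate 1. Without EC replicate 2 or 3, or any 1 EN replicate, Mcm7 did not pass (highest limma adjusted p = 0.157). Mcm2, Mcm3 and Mcm5 also had every EN library above every EC library, with log2 changes of 0.14, 0.14 and 0.092 and limma adjusted p of 0.0913, 0.0729 and 0.155. Mcm4 and Mcm6 overlapped, at 0.029 and 0.023, and both changed sign in some alternatives. The mean of the 6 genes' log2 values, set to 0 over EC, was 0.029, 0.023 and -0.052 in EC replicates 1 to 3 and 0.061, 0.098 and 0.14 in EN replicates 1 to 3. Cdc6 and Cdt1, the loaders of the ring, and Gins2 had log2 changes of -0.024, 0.022 and 0.075.

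None of the clamp gene and the ribonucleotide reductase genes, which supply deoxynucleotides, passed in limma or had an unadjusted p under 0.05, and none of the 3 passed with voom. Pcna (chromosome 3, 124880698 to 124884570) was at 316, 320.1 and 309 FPKM in EC and 307, 315 and 306 in EN, with overlapping groups (log2 change -0.025, 95% interval -0.10 to 0.051, limma adjusted p = 0.628). Rrm2 (chromosome 6, 43884678 to 43889515) was at 336, 333 and 333 FPKM in EC and 311, 326 and 320.4 in EN, every EN library below every EC library (log2 change -0.065, SE 0.033, limma adjusted p = 0.217). Rrm1 was at -0.013 with overlapping groups, and its sign changed over the alternatives (-0.053 to 0.032). The precision at this abundance was high enough that the Pcna interval excluded a 1.1-fold change in either direction, as did those of 7 of 40 members in all, against 4.42% of all genes tested.

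Cyclin D1, the partner of Cdk4 and Cdk6 in G1, did not differ beyond the spread of the libraries. Ccnd1 (chromosome 1, 218090750 to 218100325) was at 576, 563 and 545 FPKM in EC and 547, 555 and 569 in EN (log2 change -0.011, 95% interval -0.098 to 0.076, limma adjusted p = 0.865). Its relative Ccnd2 was at 0.032 and Cdk2 at 0.063. The E-type cyclins, which activate Cdk2 at the start of S phase, stood on opposite sides (both named after their values were seen). Ccne1 was at 15.9, 16.2 and 15.9 FPKM in EC and 17.4, 18.1 and 17.6 in EN, and Ccne2 at 16.5, 16.0 and 16.6 in EC and 15.2, 15.6 and 15.0 in EN. Both pairs of groups were separate, with log2 changes of 0.14 and -0.093 and limma adjusted p of 0.0728 and 0.193. A gene on the other strand, Ints8, overlaps Ccne2, and whether the counting used strand is not given in the sources at hand.

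E2f1, an activator of S-phase genes (chromosome 3, 150047826 to 150073721), was at 16.5, 15.5 and 15.8 FPKM in EC and 18.3, 17.5 and 18.7 in EN. Every EN library was above every EC library (log2 change 0.18, SE 0.048, 95% interval 0.066 to 0.29), and the limma adjusted p of 0.0507 lay just above the threshold. It was between 0.017 and 0.161 over the alternatives tried and under the threshold in 7 of 18. With 1 library left out it stayed above the threshold in all 6 fits, at 0.0586 to 0.161. Overlapping models on the other strand include Actl10. E2f8, an atypical E2F that represses the same genes, also had separate groups, at 0.073 (limma adjusted p = 0.300).

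**Figure D2:**
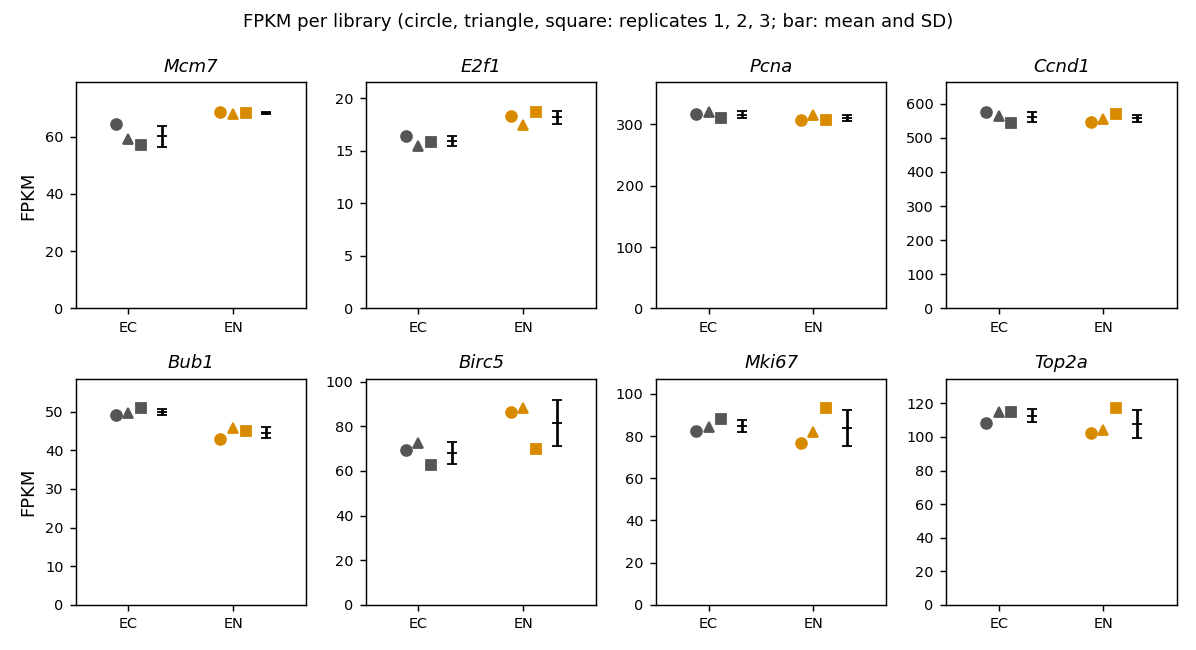
FPKM of 8 genes in each library, EC in grey and EN in orange, with the mean and SD (n = 3) beside each group; axes start at 0. The EN points of Mcm7 and E2f1 lie above all EC points, those of Bub1 below them, and the other 5 genes overlap.

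Among mitosis genes, 1 of 21 passed as lower, none as higher and 20 did not pass (limma), and 7 had an unadjusted p under 0.05, 4 higher and 3 lower. These are 4.76% and 33.3% of the mitosis genes, against 14.4% and 32.3% of all genes tested. The median log2 change was -0.0085, with 10 positive and 11 negative changes. That sign is not a direction: it was positive, at 0.00085 to 0.012, with any 1 library left out, 0.0074 on the TPM scale, 0.013 with the length trend removed and 0.014 with voom. The gene that passed was Bub1, the kinase that recruits the spindle checkpoint to kinetochores (chromosome 3, 120373604 to 120404910). It was at 49.1, 49.8 and 50.9 FPKM in EC and 42.9, 45.7 and 44.9 in EN. Every EN library was below every EC library, and the mean fell by 10.9%, from 49.9 ± 0.879 to 44.5 ± 1.41 FPKM (SD, n = 3 each). The log2 change was -0.16 (SE 0.039, 95% interval -0.26 to -0.070), with a limma adjusted p of 0.0385. The call was lost when EC replicate 1, 2 or 3 or EN replicate 1 or 2 was left out (highest adjusted p = 0.122) and held without EN replicate 3 (0.0483), with log2 changes of -0.18 to -0.14. It was also lost without a filter on low values (0.0517) and without a variance trend (0.0748), and held in 11 of 18 alternatives.

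The other 3 checkpoint and anaphase-promoting complex genes among the members did not pass. Bub1b, the BubR1 checkpoint protein, was at -0.027 and Ube2c, the ubiquitin-conjugating enzyme of the anaphase-promoting complex, at -0.023, both with overlapping groups. Cdc20, the activator that the checkpoint holds back, was at 100.5, 100.1 and 101.9 FPKM in EC and 107.5, 113.1 and 106.5 in EN. Its groups were separate with EN above (log2 change 0.11, SE 0.036, limma adjusted p = 0.0839, named after its values were seen).

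Of the 8 mitotic kinase, cyclin and activator genes, none passed, with 5 changes positive and 3 negative. Cdk1 (chromosome 20, 20576377 to 20591549), the kinase that drives entry into mitosis, was at 127.9, 135.9 and 125.6 FPKM in EC and 133.6, 126.4 and 116.5 in EN, with overlapping groups (log2 change -0.050, 95% interval -0.19 to 0.087, limma adjusted p = 0.594). Its cyclins Ccna2 and Ccnb1 were at -0.080 and -0.14. Ccnb1 had every EN library below every EC library, at 108.9, 122.7 and 115.0 FPKM in EC and 100.5, 107.0 and 107.1 in EN (limma adjusted p = 0.124). A gene on the other strand, Exosc9, overlaps Ccna2. Plk1, Aurka, Cdc25c, the phosphatase that activates Cdk1, and Foxm1 had every EN library above every EC library, with log2 changes of 0.14, 0.12, 0.12 and 0.091 and limma adjusted p of 0.103, 0.124, 0.156 and 0.159. Thus EN was above in 4 of the 8 and below in 1, against 18.6% and 19.4% of all genes tested. Aurkb, the catalytic kinase of the chromosomal passenger complex, was at 0.015 with overlapping groups.

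The 4 spindle motor and assembly genes all had overlapping groups. Kif20a, a kinesin of the central spindle and the most abundant (chromosome 18, 27424328 to 27432814), was at 97.6, 96.7 and 95.2 FPKM in EC and 98.4, 95.5 and 97.8 in EN (log2 change 0.011, 95% interval -0.066 to 0.087, limma adjusted p = 0.851). Cdc23 overlaps Kif20a on the other strand. Kif23 and Tpx2, a microtubule nucleator that activates Aurora A, were at 0.019 and 0.020, and Kif11, the motor that pushes spindle poles apart, was at -0.13 (limma adjusted p = 0.136).

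Across the members, 16 of 40 had groups that did not overlap (40%), against 37.9% of all genes tested. In 12 of these EN was above (30% of the members, against 18.6% of all genes tested) and in 4 below (10%, against 19.4%). Of the replication genes, 7 of 19 were separate with EN above and 2 with EN below, and of the mitosis genes 5 of 21 and 2 of 21. The mean of the replication genes' log2 values, set to 0 over EC, was 0.013, 0.017 and -0.030 in EC replicates 1 to 3 and 0.023, 0.066 and 0.061 in EN replicates 1 to 3. The mean of the mitosis genes was -0.015, 0.021 and -0.0059 in EC and -0.011, 0.014 and 0.015 in EN. The replication means of EN lay above those of EC, by 0.050 on average, and the mitosis means overlapped. Whether the 2 sets differ from each other was not tested, and the mean over all genes tested was 0.0046 in EN on the same scale.

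**Figure D3:**
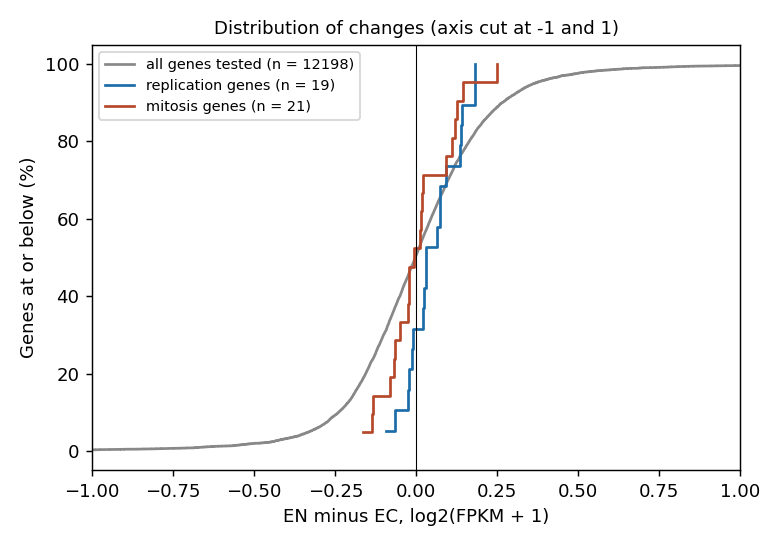
Cumulative share of genes by the difference between EN and EC on the log2(FPKM + 1) scale, for 12198 genes tested (grey), 19 replication genes (blue) and 21 mitosis genes (red). Both coloured curves are steeper than the grey one, since all members lie between -0.16 and 0.25.

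Some of the best known proliferation markers were set apart by library and not by group. Mki67 (chromosome 1, 207993895 to 208020454) was at 82.3, 84.4 and 87.9 FPKM in EC and 76.5, 81.7 and 93.2 in EN, so that EN held both the lowest and the highest library (log2 change -0.022, 95% interval -0.19 to 0.15, limma adjusted p = 0.862). Top2a (chromosome 10, 86901007 to 86932154) was at 108.2, 115.0 and 115.0 FPKM in EC and 102.1, 103.9 and 117.1 in EN (log2 change -0.068, 95% interval -0.21 to 0.073, limma adjusted p = 0.471). Cenpf, a kinetochore protein, was at 36.1, 38.9 and 37.2 FPKM in EC and 34.0, 36.5 and 41.4 in EN. In all 3 genes EN replicate 3 was the highest of the 6 libraries, and EN replicate 1 the lowest.

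Birc5, which encodes survivin of the chromosomal passenger complex (chromosome 10, 106856097 to 106864413), had the reverse order among EN libraries. It was at 69.3, 72.4 and 62.8 FPKM in EC and 86.5, 88.1 and 69.7 in EN. EN replicates 1 and 2 were above every EC library and EN replicate 3 lay among them (log2 change 0.25, SE 0.097, 95% interval 0.018 to 0.48, limma adjusted p = 0.131). Without EN replicate 3 the log2 change was 0.35 (limma adjusted p = 0.023). It passed in only this 1 of the 6 fits with 1 library left out. Over the 6 fits the log2 change was 0.19 to 0.35, with a limma adjusted p of up to 0.322. A model on the other strand overlaps Birc5. Cenpe, a kinetochore motor, was at -0.066 with overlapping groups.

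The difference between EN replicate 3 and the mean of EN replicates 1 and 2 went with the length of the gene model. On the log2(FPKM + 1) scale it was 0.23 for both Mki67 and Cenpf, whose models of 9880 and 10069 bases are the longest of the members, 0.18 for Top2a (5589 bases) and 0.093 for Cenpe (7621 bases). It was -0.32 for Birc5, the shortest at 873 bases, and -0.16 for Cdk1 (1411 bases). Other short models did not share this: it was -0.022 for Pcna (1160 bases), 0.0096 for Rrm2 (1173 bases) and 0.15 for Ccnd2 (1414 bases). Across the 40 members Spearman's rho with length was 0.49 (0.68 over the 21 mitosis genes and 0.21 over the 19 replication genes), as a description over genes that share the same 3 libraries. Over all 12198 genes tested rho was 0.16. With each library's trend with length removed, 2 replication genes passed as higher (Mcm7 and E2f1) and 1 mitosis gene as lower (Bub1).

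**Figure D4:**
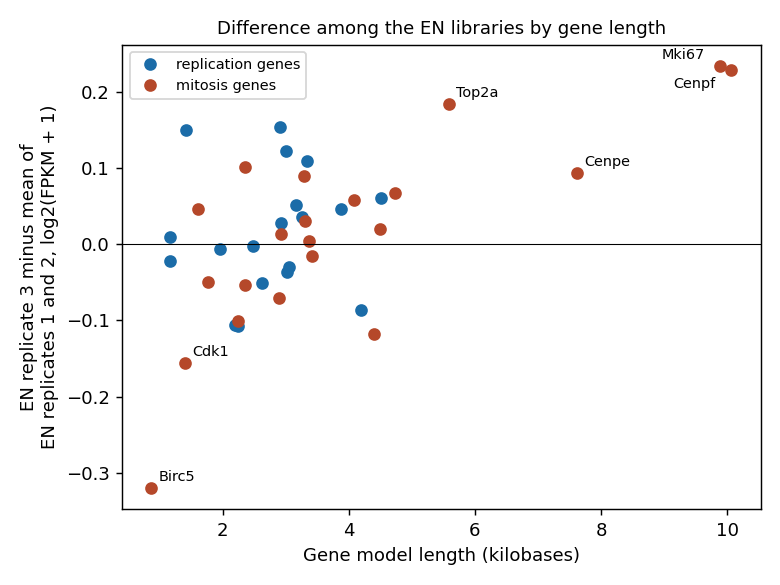
Level in EN replicate 3 minus the mean of EN replicates 1 and 2 on the log2(FPKM + 1) scale against gene model length in kilobases, for 40 genes. The longest models, of Mki67 and Cenpf, lie at 0.23 and the shortest, of Birc5, at -0.32.

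The rest of the machinery was read from wider lists. Of 53 other replication genes, 3 passed as higher, 3 as lower and 47 did not pass (limma), or 11.3%, with a median log2 change of -0.0076. Of 67 other mitosis genes, 4 were higher, 4 lower and 59 did not pass, or 11.9%, with a median of -0.044. Both shares were near the 14.4% of all genes tested. At an unadjusted p under 0.05 (limma) there were 21 replication genes, 10 higher and 11 lower, and 32 mitosis genes, 13 higher and 19 lower. These are 39.6% and 47.8%, against 32.3% of all genes tested. Without EC replicate 2, EC replicate 3 or EN replicate 2 no gene of either list passed, and without EN replicate 1 only 1 did, a mitosis gene. Without EN replicate 3 there were 5 and 15, and without EC replicate 1 there were 6 and 13. Without a variance trend 0 replication and 6 mitosis genes passed, without a filter 1 and 3, and on the TPM scale 3 and 7. With voom 10 and 14 passed, and with array weights 18 and 33. Of all 12198 genes tested, 2343 passed with voom, 3849 with array weights, 1019 without a variance trend and 1723 on the TPM scale. The count was 866 of 20495 without a filter, 2067 of 12190 without EN replicate 3, and 1614 of 12174 without EC replicate 1. It was 345 to 446 without EC replicate 2 or 3 or EN replicate 1 or 2.

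Replication genes in those lists that passed did different jobs. Rpa2 and Rpa3, subunits of the protein that coats single-stranded DNA, and Prim1, the primase subunit, were lower, at log2 changes of -0.15, -0.25 and -0.17. Rpa3 (chromosome 4, 34279320 to 34282351) was at 102.0, 97.6 and 110.6 FPKM in EC and 86.5, 90.4 and 83.3 in EN. Chaf1a, of the chromatin assembly factor that follows the fork, was higher, at 33.0, 29.6 and 28.1 FPKM in EC and 38.2, 37.2 and 35.9 in EN (log2 change 0.29, SE 0.064). The groups of these 4 genes did not overlap. The limma adjusted p was 0.0291 to 0.0415 for the 4. With 1 library left out it rose to 0.126 at most for Rpa2 and 0.0896 for Rpa3, both lost without any one of the 6 libraries. It rose to 0.101 for Chaf1a when EC replicate 2 or 3 or EN replicate 1 or 2 was left out, and to 0.118 for Prim1 without these or EN replicate 3. The remaining 2, outside the naming rule, were Chaf1b, the partner of Chaf1a, and Fen1, the flap nuclease that trims Okazaki fragments, both higher (log2 changes 0.21 and 0.41, limma adjusted p of 0.0468 and 0.0474).

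Mitosis genes in the wider list also moved both ways. Cenpk, a kinetochore subunit (chromosome 2, 34312766 to 34335776), was at 14.7, 14.7 and 15.7 FPKM in EC and 11.98, 11.4 and 10.6 in EN (log2 change -0.38, SE 0.060, limma adjusted p = 0.0131). A gene on the other strand, Ppwd1, overlaps it. Spc24, of the kinetochore complex that grips microtubules, rose from 24.7 ± 1.69 to 31.9 ± 1.91 FPKM (SD, n = 3 each), Espl1, the separase that cuts cohesin, from 15.0 ± 0.419 to 18.2 ± 0.556, and the centrosomal kinase Nek2 from 27.1 ± 1.704 to 33.3 ± 1.51. Their log2 changes were 0.36, 0.26 and 0.29, with limma adjusted p of 0.0198, 0.0191 and 0.0252. Each of these 4 calls was lost when EC replicate 2, EC replicate 3 or EN replicate 2 was left out, and those of Spc24, Espl1 and Nek2 also without EN replicate 1, with a highest adjusted p of 0.0907 (Nek2). The remaining 4, outside the naming rule, were Incenp, the scaffold of the chromosomal passenger complex, as higher (log2 change 0.19), and the checkpoint gene Bub3, the kinetochore scaffold gene Knl1 and the kinesin gene Kif18a as lower (-0.17, -0.22 and -0.25). Bub3 and Knl1 encode the partner and the dock of Bub1 at kinetochores (limma adjusted p of 0.0440 and 0.0425, set beside Bub1 after their values were seen). Mad2l1 and Ttk, also checkpoint genes of this list, did not pass (log2 changes -0.049 and -0.12, limma adjusted p of 0.396 and 0.326). Whether the checkpoint genes moved together was not tested.

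Some regulators of the cycle differed by more than any member. Of 13 tested genes of G1 entry, 1 was higher, 1 lower and 11 did not pass (limma), or 15.4%, a share near the 14.4% of all genes tested. Mybl2, the B-Myb factor that activates mitotic genes (chromosome 3, 159421671 to 159450086), was at 23.4, 22.5 and 22.8 FPKM in EC and 29.4, 28.6 and 27.8 in EN (log2 change 0.31, SE 0.041, limma adjusted p = 0.00891). It passed in all 18 alternatives, with log2 changes of 0.29 to 0.34. Mybl1, its A-Myb relative (chromosome 5, 9279970 to 9315114), went the other way, from 75.9, 82.1 and 84.5 FPKM in EC to 63.8, 62.4 and 65.9 in EN (log2 change -0.33, SE 0.049, limma adjusted p = 0.0106). Its call was lost without EC replicate 2 or EN replicate 2 (highest adjusted p = 0.0542).

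Of 22 tested inhibitors and quiescence genes, 1 was higher, 4 lower and 17 did not pass (limma), or 22.7% against 14.4% of all genes tested. With 1 library left out 0 to 5 passed, with none when EC replicate 2 or EN replicate 2 was omitted and 1 when EC replicate 3 or EN replicate 1 was. Without a filter or without a variance trend 3 passed, and with array weights 8. Over all genes tested 866, 1019 and 3849 passed in these 3 fits. Cdkn1a, which encodes the Cdk inhibitor p21 (chromosome 20, 6351458 to 6358864), was at 78.5, 71.4 and 70.5 FPKM in EC and 92.4, 94.7 and 90.0 in EN (log2 change 0.33, SE 0.050, limma adjusted p = 0.0117). Leaving out EC replicate 2 or EN replicate 2 ended the call, with an adjusted p of 0.0565 at most. Its relative Cdkn1b (p27) was at -0.075 and did not pass. The Cdk inhibitor gene Cdkn1c (p57) had 0 reads in the 6 libraries together, where 3 reads would be a level of 0.0146 FPKM (counting error only). Cdkn2a and Cdkn2b, of the Ink4 locus, also had 0 reads, with limits of 0.0326 and 0.00528 FPKM (both named after their values were seen). Rb1, the retinoblastoma protein that holds E2F in check, fell from 22.4 ± 1.89 to 17.4 ± 0.630 FPKM (SD, n = 3 per group). Its log2 change was -0.35 (SE 0.067), with a limma adjusted p of 0.0210. Lpar6 overlaps it on the other strand. The repressor gene E2f6 and the phosphatase gene Cdkn3 fell by 0.21 and 0.24 on the log2 scale, with limma adjusted p of 0.0174 and 0.0250. Rb1, E2f6 and Cdkn3 each lost the call when replicate 2 or 3 of EC, or replicate 1 or 2 of EN, was left out (highest adjusted p = 0.0892). The fourth lower gene, outside the naming rule, was Rbl2, the retinoblastoma relative p130 (log2 change -0.23, limma adjusted p = 0.0475).

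Of 19 S and G2 checkpoint genes, 1 was lower and 18 did not pass (limma), or 5.26% against 14.4% of all genes tested. The one that passed was Wee1, the kinase that keeps Cdk1 inactive before mitosis (chromosome 1, 174767960 to 174786361). It was at 35.6, 37.0 and 40.0 FPKM in EC and 28.3, 28.7 and 30.4 in EN, every EN library below every EC library (log2 change -0.35, SE 0.055, limma adjusted p = 0.0128). The call ended when EC replicate 2 or either of EN replicates 1 and 2 was left out, with an adjusted p of 0.0567 at most. Small RNA models lie inside Wee1 and Mybl2 on the same strand.

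**Figure D5:**
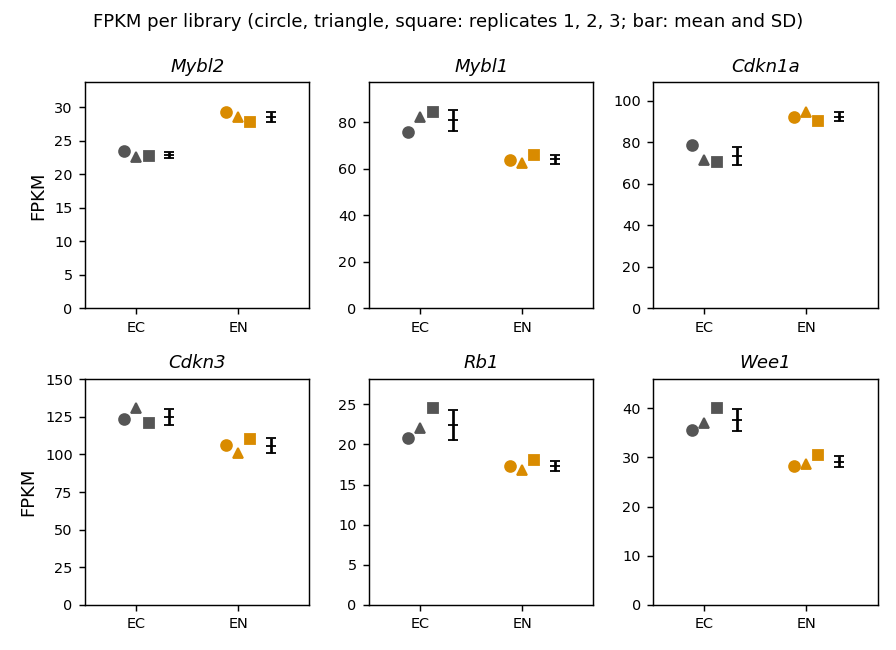
FPKM of 6 cell cycle regulators in each library, EC in grey and EN in orange, with the mean and SD (n = 3) beside each group; axes start at 0. Mybl2 and Cdkn1a are higher in EN and Mybl1, Cdkn3, Rb1 and Wee1 lower, with no overlap between groups.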

How the data were processed

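The members and gene lists were chosen with earlier results of these data known. Total RNA was extracted (Trizol) and made into TruSeq RNA libraries, per the labels' protocols. The authors deposited 1 table of FPKM for 33350 gene models with their lengths in bases. HISAT2 2.0.5 and Rnor_6.0 were used, per the submitters' processing notes. No source used here gives the counting tool, annotation release or strand setting. FPKM times length was a whole multiple of 1 step for 100% of non-zero values (within 0.001), so reads were worked back, and a symbol with several rows was read from the highest.

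limma 3.58.1 in R 4.3.3 was fitted with a variance trend to log2(FPKM + 1), with group as the only term, for the 12198 genes whose mean reached 1 FPKM. Tests were two-sided with a Benjamini-Hochberg adjusted p under 0.05, adjusted over all genes tested. The log2 scale understates changes of low genes. Intervals are 95% and not adjusted. The fit was tested on simulated data. Shown in every library were members past the test, else the most abundant of each role, and Mki67, Top2a, Pcna, Ccnd1 and Cdk1. Named from each wider list were up to 4 genes with the smallest adjusted p past the test, with Cdkn1a, Cdkn1b and Cdkn1c. The 18 alternatives were pseudocounts of 0.1 and 0.5, no filter or 5 FPKM, TPM, median centring, quantile normalization, voom, removal of the length trend (lowess, span 0.5), the replicate number as a block, no variance trend, array weights and each library left out. Outliers were not sought in groups of 3.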

Additional observations from a re-analysis of the deposited data

How the results depend on the processing

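With 1 library left out, 345 to 2067 genes passed in all (1754 with every library; 347 and 409 when replicate 2 or 3 of EC was omitted, and 446 and 345 when replicate 1 or 2 of EN was), 0 to 2 of the replication genes and 0 to 2 of the mitosis genes, and the replication median was 0.027 to 0.067. Without a filter 866 genes and 0 mitosis genes passed, without a variance trend 1019 and 0, and with array weights 3849 genes, 5 replication and 7 mitosis genes, with a replication median of 0.050. The replication count was 2 with a minimum of 5 FPKM, median centring, quantile normalization or the length trend removed, and 3 on the TPM scale. With voom it was 4, with 3 mitosis genes, 2343 genes in all and medians of 0.055 and 0.014. The cause of these differences was not tested.

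Same-numbered libraries had correlations of 0.088, -0.095 and -0.020 in their deviations from the group means, and differently numbered ones -0.11 to 0.13. With 3 libraries per group these values cannot exclude that the replicate number pairs the libraries. With the number as a block 1907 genes, 0 replication genes and 3 mitosis genes passed (Bub1 lower, Plk1 and Birc5 higher). The other alternatives kept each count within 1.5 times. No member past the test changed sign, and 14 members did so at least once, passing neither in the report nor where the sign changed, each with a log2 change of at most 0.050 in size with the settings of the report. Depth limits the lower genes most: Gins2 had as few as 413 reads in a library.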
